A study of Mus musculus with 6 samples.

Results

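Atoh1 and 9 further transcription factors of goblet and Paneth cells were measured in sorted Lgr5-positive stem cells of the mouse small intestine after gamma-secretase had been inhibited. The 10 genes (Atoh1, Gfi1, Spdef, Foxa1, Foxa2, Foxa3, Bhlha15, Creb3l1, Creb3l4 and Klf4) were chosen by name. They have 12 of the 45101 probe sets on the array. Each gene was represented by the probe set with the highest mean over all 6 arrays, and so was every other gene, 18193 in all. Of the 10 genes 8 have 1 probe set, while Bhlha15 and Klf4 have 2 each. No filter on low values was applied, so all 10 were tested.

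The DBZ group held 3 mice given DBZ, a gamma-secretase inhibitor, and the vehicle group 3 mice given DMSO. All 6 carried the Lgr5-EGFP-IRES-creERT2 allele, which places EGFP and the CreERT2 recombinase under the control of Lgr5, the marker gene of stem cells at the crypt base. Cells with high GFP were sorted at 24 h and, going by the titles, each array holds the RNA of 1 mouse. The description field names DMSO on every array, so the grouping rests on the titles, and the dose is not used because its printed unit is in doubt. The sources used here do not give age, sex or strain background. The series set out to profile inhibition of NOTCH1 in the intestine, while DBZ acts on gamma-secretase and so on every Notch receptor.

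In the crypt, an active Notch receptor switches on Hes repressors, and these hold down Atoh1. A cell that escapes Notch expresses Atoh1 and enters the secretory lineage, which yields goblet, Paneth, enteroendocrine and tuft cells. Gfi1 then favours the goblet and Paneth branches over the endocrine one. Spdef drives the maturation of both of these cell types, and the Foxa, Creb3l and Bhlha15 factors take part in building mucus and secretory granules.

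Atoh1 and Bhlha15 are basic helix-loop-helix proteins that bind E-boxes, short DNA elements spelled CANNTG. The 200 bases before the outermost transcription start are shown for Atoh1, for Gfi1, Bhlha15 and Foxa3, which rose with it, and for Klf4, which did not pass. Each stretch lies outside its own RefSeq gene. That of Foxa2 does too, holds no E-box and is not shown. They are read 5′ to 3′ along the gene in build GRCm38.p6, with each E-box in capitals.
Atoh1, chr6:64728925-64729124, plus strand: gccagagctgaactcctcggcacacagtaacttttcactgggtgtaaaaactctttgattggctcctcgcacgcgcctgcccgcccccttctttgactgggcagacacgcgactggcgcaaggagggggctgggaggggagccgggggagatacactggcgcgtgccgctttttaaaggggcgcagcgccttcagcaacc
Gfi1, chr5:107725806-107726005, minus strand: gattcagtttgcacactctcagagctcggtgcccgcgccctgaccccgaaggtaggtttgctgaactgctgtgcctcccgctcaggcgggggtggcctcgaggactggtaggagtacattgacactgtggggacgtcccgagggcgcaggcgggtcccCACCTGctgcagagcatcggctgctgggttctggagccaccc
Bhlha15, chr5:144190086-144190285, plus strand: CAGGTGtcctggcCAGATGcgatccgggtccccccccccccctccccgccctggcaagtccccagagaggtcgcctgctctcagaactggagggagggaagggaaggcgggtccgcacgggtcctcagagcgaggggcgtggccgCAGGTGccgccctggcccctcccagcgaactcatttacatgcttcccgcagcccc
Foxa3, chr7:19023540-19023739, minus strand: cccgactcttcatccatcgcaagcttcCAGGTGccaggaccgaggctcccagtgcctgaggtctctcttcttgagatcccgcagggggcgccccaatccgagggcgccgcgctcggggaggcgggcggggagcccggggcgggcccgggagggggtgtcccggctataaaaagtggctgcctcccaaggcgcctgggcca
Klf4, chr4:55532476-55532675, minus strand: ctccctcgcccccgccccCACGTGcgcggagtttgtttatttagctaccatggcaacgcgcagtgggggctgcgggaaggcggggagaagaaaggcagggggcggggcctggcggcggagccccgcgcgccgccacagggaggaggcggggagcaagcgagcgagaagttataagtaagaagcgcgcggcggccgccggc
The Atoh1 stretch holds no E-box. Gfi1 has 1, spelled CACCTG, at position -42 from the start. That is CAGGTG read on the other strand. Bhlha15 has CAGGTG at -200 and -55 and CAGATG at -187, and Foxa3 has CAGGTG at -173. Klf4 has CACGTG at -182.

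Over the longer windows in the RefSeq table, 250 bases before to 50 after each start, 9 of the 10 factors had an entry, and Creb3l1 was not matched. An E-box was found on either strand in 7 of the 9, against 75% of 27025 genes. The form CAGCTG occurred only in Klf4 among the 9, against 18.3% of all genes, and CATATG in none, against 4.48%. CAGGTG, looked up after the matches had been seen, occurred in Gfi1, Bhlha15, Creb3l4, Foxa1 and Foxa3, or 5 of the 9, against 22.6%. Some genes have several windows, and by window CAGGTG was in 5 of 14, against 20.2% of 32851. Since it was picked from these windows, its share cannot be read as an excess. All 5 genes rose with DBZ, as given next, and so did Atoh1 and Spdef, whose windows hold no E-box. The windows of Spdef, Foxa1 and Creb3l4 lie inside their RefSeq genes, so they do not cover the bases before the outermost start. The N-box CACNAG, an element bound by Hes repressors, was in the windows of Atoh1, Creb3l4, Foxa2 and Foxa3, against 46.1% of genes. The CRE core TGACGT, of the kind bound by Creb proteins, was in Spdef alone (8.37% of genes), and the Foxa element TGTTTAC, or its complement, in Foxa1 alone (4.05%). The Klf element CACCC was in 7 of the 9 (59.8%). These matches are descriptions of the letters in the windows.

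Arrays were on a common level, with median intensities of 45.3 to 45.5 in DBZ and 44.9 to 46.3 in vehicle arrays. Gene values correlated across genes at 0.985 to 0.992 between DBZ arrays, 0.993 to 0.996 between vehicle arrays and 0.961 to 0.989 between the groups. For the actin control probe sets, the ratio of 3′ to 5′ signal, which reflects how intact the RNA is, was 1.51 to 1.57 in DBZ and 1.61 to 2.22 in vehicle arrays, and so moved with the comparison, and its part was not tested. That of the Gapdh control overlapped, at 1.05 to 1.09 in DBZ and 1.07 to 1.42 in vehicle arrays. Vehicle replicate 1 was highest in both ratios. Lgr5 itself lay at 209 to 242 units in DBZ and 204 to 271 units in vehicle arrays. Of 10 listed genes of crypt base stem cells 1 rose, Sox9, and 3 fell, Olfm4 (-6.63), Aqp4 (-1.37) and Ascl2 (-1.03). The goblet mucin gene Muc2 was bright in both groups, at 18493 to 23440 units in DBZ and 15797 to 18527 units in vehicle arrays. So was Fabp2 of enterocytes, at 21490 to 24477 units in DBZ and 23903 to 24320 units in vehicle arrays, although Lct of the same list was at 12.5 to 13.8 units in DBZ and 18.2 to 23.1 units in vehicle arrays. In such bulk samples, more cells of a type and more RNA per cell cannot be told apart. The brightest probe sets lay at 29679 to 29871 units in DBZ and 27330 to 28128 units in vehicle arrays. Whether signals near that top understate differences was not tested.

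DBZ raised 8 of the 10 factors, and all 10 differences were positive, against 8263 of all 18193 genes. Atoh1, Gfi1, Spdef, Bhlha15, Creb3l1, Creb3l4, Foxa1 and Foxa3 rose (limma, Benjamini-Hochberg adjusted p under 0.05 over 18193 genes), while Foxa2 and Klf4 did not pass. Among all genes 5.34% were called, 3.82% higher and 1.52% lower. Of the 10 factors 7 rose at least 2-fold, which 1.2% of all genes did. The median log2 difference, DBZ minus vehicle, of (intensity + 16) was 1.72 over the 10 factors and -0.02 over all genes. Every DBZ array lay above every vehicle array for 9 of the 10, with Klf4 as the exception, against 17.3% of all genes. Of all calls 71.5% were higher, or 60.2% after quantile normalization and 57.9% with arrays centred on their medians. All 10 differences stayed positive under both.

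The number of calls fell when any array other than DBZ replicate 1 was left out. A fit with 1 array fewer is also less able to call a change, and the part of each was not tested. Without DBZ replicate 2, vehicle replicate 1 or vehicle replicate 2, 3 of the 10 passed, namely Atoh1, Gfi1 and Bhlha15. The shares of all genes called higher were then 0.945%, 0.231% and 0.0879%. Without vehicle replicate 3, 2 passed, Gfi1 and Bhlha15, with 0.187% of genes called higher. Without DBZ replicate 1 all 8 passed (7.17% of genes), and without DBZ replicate 3 all but Creb3l1 (1.53%). Over these 6 fits the log2 difference ranged from 1.77 to 2.02 for Atoh1, from 2.04 to 2.30 for Gfi1 and from 1.56 to 2.04 for Spdef.

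**Figure D1:**
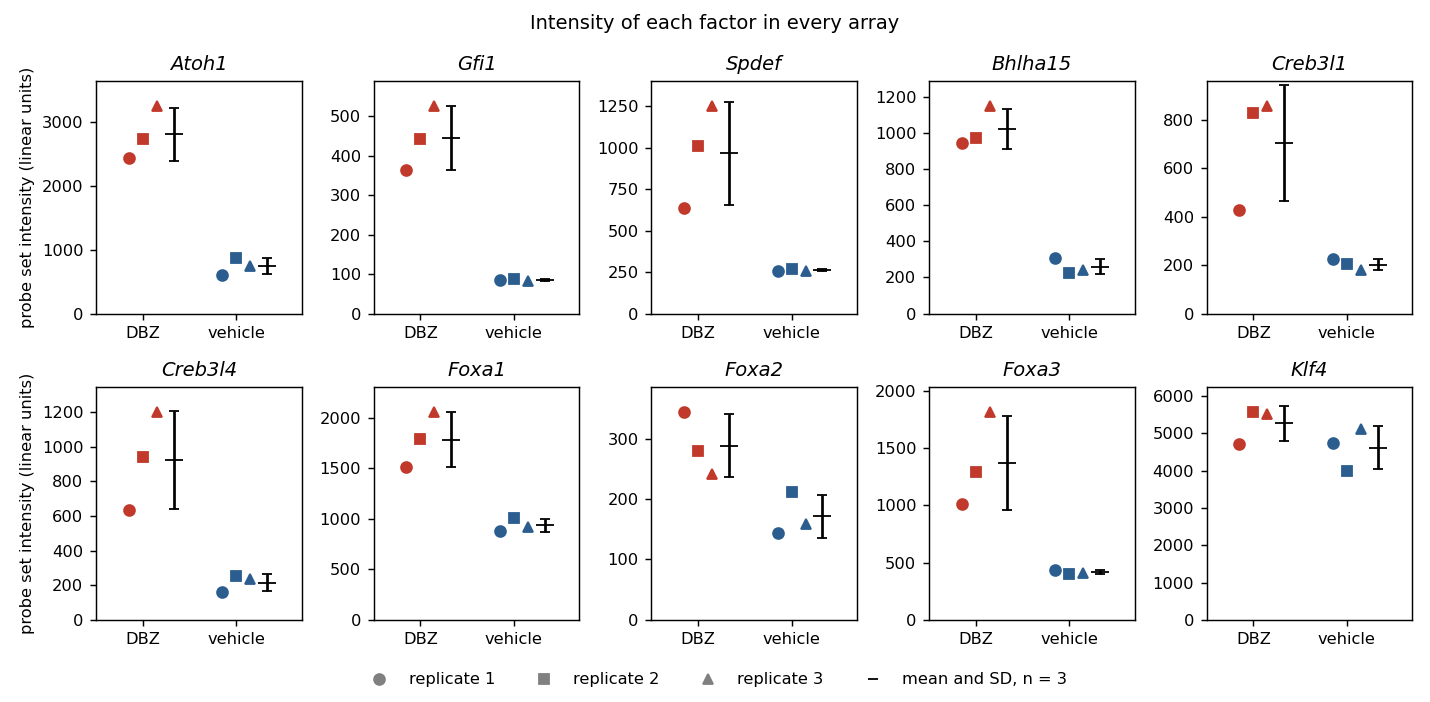
Probe set intensity (linear units, axis from 0) of each of the 10 factors in the 3 DBZ arrays (red, left) and the 3 vehicle arrays (blue, right). Marker shapes give the replicate number, and bars give mean and SD (n = 3). The groups are apart for all factors except Klf4.

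**Figure D2:**
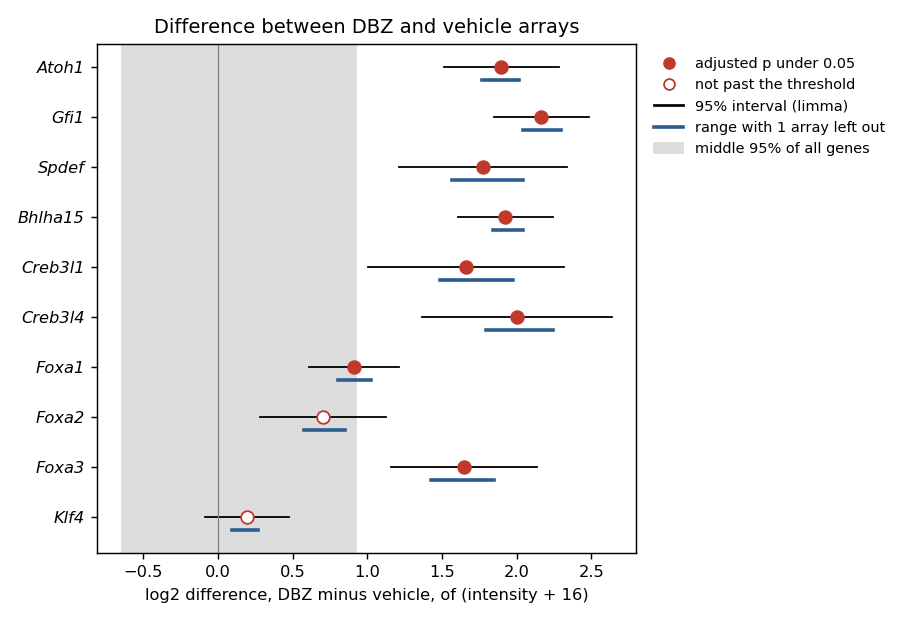
Log2 difference, DBZ minus vehicle, of (intensity + 16) for each factor with its 95% limma interval (black). Blue lines give the range when 1 array is left out, and grey marks the middle 95% of all genes, -0.65 to 0.93. For 7 factors the value lies beyond the grey band, and for Foxa1, Foxa2 and Klf4 within it.

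Markers of other cell types moved in the same arrays, and their part in these results was not tested. Of 10 listed fibroblast and smooth muscle genes 6 rose (5 with arrays centred on their medians), with Lum at 1.84, Col1a2 at 1.24, Col3a1 at 1.10 and Acta2 at 0.66, and their summed intensity was 41650 to 49322 in DBZ and 19311 to 28419 in vehicle arrays. Adipocyte and mesothelium genes summed to 4365 to 10578 in DBZ and 1288 to 2702 in vehicle arrays, and Adipoq alone of the 6 measured rose. Endothelial genes summed to 1074 to 1274 units in DBZ and 833 to 898 units in vehicle arrays, and 1 of 6 rose, Kdr, although not after quantile normalization. Leukocyte genes summed to 8759 to 16388 units in DBZ and 8384 to 10327 units in vehicle arrays, and S100a8 and S100a9 rose among the 8. S100a8 had 1486, 308 and 2746 units in DBZ arrays, against 16.9, 17.0 and 24.0 units in vehicle arrays. The median log2 difference of the 8 was only 0.04, with 5 positive, and Ptprc was at -0.16 (limma, adjusted p = 0.72). Of 7 general epithelium genes 0 passed (limma; 2 at an unadjusted p under 0.05), with sums of 90029 to 96406 units in DBZ and 87997 to 98179 units in vehicle arrays. Enteroendocrine genes summed to 8215 to 25334 units in DBZ and 6429 to 7520 units in vehicle arrays, and 1 of 12 rose, Pcsk1 (0.78). All 12 were positive, with a median log2 difference of 1.18, and 8 had an unadjusted p under 0.05 (limma). No listed marker was at 0, since array values have a floor above it.

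Atoh1, which commits crypt cells to the secretory lineage, had intensities of 2434, 2739.8 and 3257 units in DBZ arrays, against 614, 870.2 and 748 units in vehicle arrays. The lowest DBZ array was well above the highest vehicle array. The log2 difference was 1.90 ± 0.16 (SE, n = 3 per group; limma, adjusted p = 0.0097), or 3.78-fold between the mean intensities. Atoh1 ranked 47 of 18193 by size of rise.

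Gfi1, a zinc finger repressor that acts after Atoh1, had 364, 442 and 526 units in DBZ arrays, against 84.9, 88.7 and 82.7 units in vehicle arrays. Vehicle arrays were nearly alike, and every DBZ array was far above them. Its log2 difference of 2.17 ± 0.13 (SE; limma, adjusted p = 0.0041) put it at rank 29 of 18193 by size of rise and 10 by p. This was the highest fold of the 10 factors, 5.19-fold between the mean intensities. Gfi1 and Bhlha15 alone among the 10 passed in each of the 6 fits with 1 array left out.

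Spdef, an ETS factor needed for goblet and Paneth maturation, had 636, 1008 and 1252 units in DBZ arrays, against 255, 267 and 259 units in vehicle arrays. The groups were apart, with DBZ replicate 1 nearest to the vehicle level. The log2 difference was 1.78 ± 0.23 (SE; limma, adjusted p = 0.025). On the log2 scale its SD was 0.49 among DBZ arrays and 0.03 among vehicle arrays. That wider spread among DBZ arrays held for 6 of the 10 factors, against 51.7% of all genes.

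The 3 Foxa genes encode forkhead proteins that open chromatin in endoderm, and they moved by different amounts. Foxa3, a factor of goblet cells, had 1009, 1293 and 1815 units in DBZ arrays, against 434, 404 and 406 units in vehicle arrays. It rose by a log2 difference of 1.65 ± 0.20 (SE; limma, adjusted p = 0.023), and its lowest DBZ array was above its highest vehicle array. Foxa1, which acts with Foxa2 in goblet and endocrine differentiation, had 1507, 1786 and 2053 units in DBZ arrays, against 878, 1007 and 917 units in vehicle arrays. Its groups were apart as well, and its log2 difference was 0.91 ± 0.12 (SE; limma, adjusted p = 0.027), or 1.91-fold.

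Foxa2 had 344, 280.0 and 241 units in DBZ arrays, against 144, 212 and 159 units in vehicle arrays. DBZ replicate 3 and vehicle replicate 2 came close to each other, without overlap. The log2 difference was 0.70, with a 95% interval of 0.28 to 1.13, and did not pass (limma, adjusted p = 0.071). Foxa2 did pass where dim genes were left out before the test, at an adjusted p of 0.042 with either filter (limma), with array weights (0.027) and with a trended, robust prior (0.048).

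Within each array, the log2 ratio of Foxa3 to Foxa1 was -0.57, -0.46 and -0.18 in DBZ arrays, against -0.99, -1.28 and -1.14 in vehicle arrays. The ratio of Foxa3 to Foxa2 was 1.51, 2.14 and 2.83 in DBZ arrays, against 1.50, 0.88 and 1.27 in vehicle arrays. Both ratios were higher in every DBZ array than in any vehicle array, narrowly so for Foxa2, with means apart by 0.74 and 0.95. That of Foxa1 to Foxa2 differed by 0.21 and overlapped. Two-sided exact permutation p-values were 0.1, 0.1 and 0.5, where 0.1 is the smallest that 3 against 3 allow, and 0.2, 0.2 and 0.5 after adjustment over 4 pairs.

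Bhlha15, also known as Mist1, scales up the secretory apparatus of exocrine cells. It had 945, 973 and 1148 units in DBZ arrays, against 305, 226 and 244 units in vehicle arrays. Its DBZ arrays were close together, all more than 3-fold above the highest vehicle array. The log2 difference was 1.93 ± 0.13 (SE; limma, adjusted p = 0.0046). Its other probe set lay at 20.7 to 21.0 units in DBZ and 20.0 to 22.8 units in vehicle arrays, near the lower quartile of the arrays (17.4 to 19.3 units), and its log2 difference was -0.01 (limma over all probe sets, adjusted p = 0.94). Averaged over both probe sets, the difference of Bhlha15 was 0.96 (limma, adjusted p = 0.013).

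Creb3l1 and Creb3l4 encode membrane-bound transcription factors that are cut free during stress or high load of the secretory pathway. Creb3l4 had 635, 941 and 1201 units in DBZ arrays, against 161, 251 and 234 units in vehicle arrays. Its groups were apart, and the log2 difference was 2.00 ± 0.26 (SE; limma, adjusted p = 0.025). Creb3l1 had 428, 829 and 858 units in DBZ arrays, against 226, 205 and 179 units in vehicle arrays. DBZ replicate 1 stood well below the other two, and the log2 difference was 1.66 ± 0.27 (SE; limma, adjusted p = 0.033). Without DBZ replicate 1 the Creb3l1 difference was 1.98. With the replicate number as a block 7 of the 10 factors passed, against 3.69% of all genes called higher, and Creb3l1 did not. The log2 ratio of Creb3l1 to Creb3l4 within arrays averaged -0.40 ± 0.20 in DBZ and -0.06 ± 0.44 in vehicle arrays (SD, n = 3; exact permutation p = 0.3, two-sided, and 0.4 after adjustment).

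Klf4, a zinc finger factor needed for goblet cells of the colon, had 4719, 5574 and 5518 units in DBZ arrays, against 4748, 4002 and 5119.9 units in vehicle arrays. The groups overlapped, since DBZ replicate 1 lay below 2 of the vehicle arrays. The log2 difference was 0.19, with a 95% interval of -0.09 to 0.47 (limma, adjusted p = 0.35). The upper bound lies below the lower bounds of the 7 factors that rose at least 2-fold. Its other probe set had 4199, 4928 and 4844 units in DBZ arrays, against 3559, 3340.5 and 4343 units in vehicle arrays, a log2 difference of 0.32 ± 0.12 (SE; limma over all probe sets, adjusted p = 0.18). By that fit over 34945 probe sets, 8 of the 12 probe sets were higher, against 2.12% of all.

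The factors that rose shared an order among the DBZ arrays. In all 8, DBZ replicate 1 was lowest and DBZ replicate 3 highest, an order seen in 18.6% of all genes and in 44.2% of the 695 genes called higher. Against the mean of the vehicle arrays, Spdef was up by 1.24, 1.89 and 2.20 on the log2 scale in DBZ replicates 1, 2 and 3, and Foxa3 by 1.25, 1.60 and 2.09. Bhlha15 varied least, at 1.82, 1.86 and 2.10. Foxa2 had the opposite order, at 0.96, 0.68 and 0.47, which 22.8% of all genes and 6.04% of those called higher had. The summed intensities of 20 listed goblet effector genes, 165359, 204150.0 and 215398 units, and of 24 listed vesicle and endoplasmic reticulum genes, 55108, 72737 and 97747 units, were in the same order as the 8 factors. So were the sums of listed Paneth genes, 46772, 74291 and 89148 units, enteroendocrine genes, 8215, 23378 and 25334 units, and fibroblast and smooth muscle genes, 41650, 43579.7 and 49322 units, and narrowly those of relatives by gene family, 26179, 26313 and 27519 units. The sums of listed enterocyte genes, 66475, 63099 and 51888 units, and crypt base stem cell genes, 8868, 8708 and 7981 units, ran the other way. Neither order was followed by the sums of the remaining lists. These were other crypt fate regulators, tuft cell, epithelium, endothelium, leukocyte, and adipocyte and mesothelium genes. A sum weighs bright genes most, and single genes of a list could depart from its order. In DBZ replicates 1, 2 and 3, Chgb of the enteroendocrine list had 2070, 6393 and 5709 units. Lum of the fibroblast and smooth muscle list had 1112, 948 and 1212 units. DBZ replicates have no order by design.

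**Figure D3:**
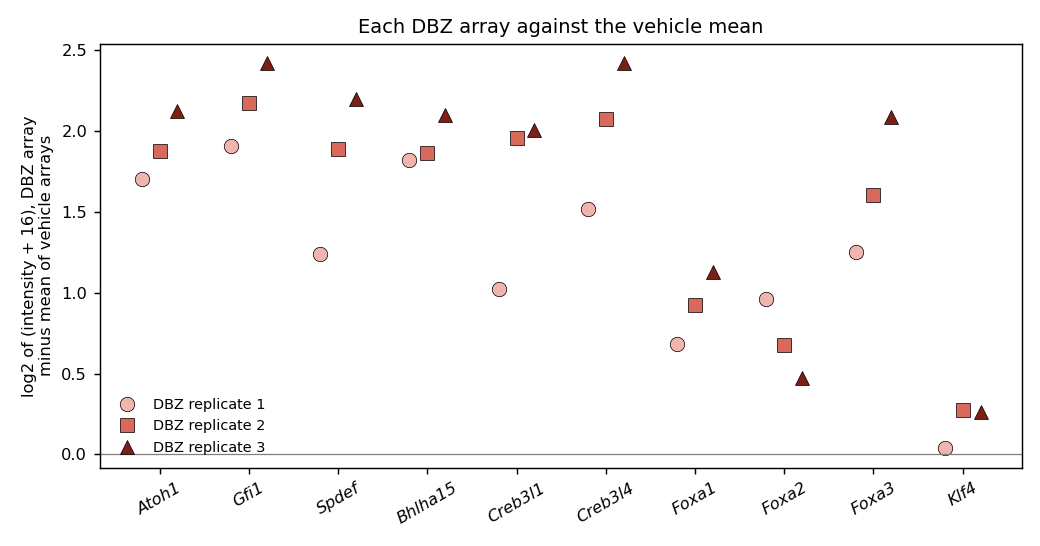
Log2 of (intensity + 16) in each DBZ array minus the mean of the vehicle arrays, for each of the 10 factors, with 1 marker shape per DBZ mouse. DBZ replicate 1 is lowest and replicate 3 highest for all 8 factors that rose, and Foxa2 runs the other way.

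Genes with a pattern most like that of Atoh1 were ranked by the root mean square difference between log2 values, each gene centred on its own mean, over the 6 arrays. Among 8948 named genes above the median level, the nearest 5 were Rassf6 (0.15), Pdia6 (0.16), Selenom (0.16), Upb1 (0.17) and Creb3l4 (0.17). Pdia6 is a disulfide isomerase of the endoplasmic reticulum. Gfi1 ranked 6, Spdef 12, Foxa3 19, Bhlha15 24 and Creb3l1 53, while Foxa1 ranked 241, Foxa2 712 and Klf4 2833. Nearest to Klf4 were Mfsd6l (0.05), Nin (0.06), Anln (0.07), Asxl2 (0.07) and Mfsd4a (0.07), with adjusted p-values of 0.31 to 0.50 (limma). The measure uses the contrast itself and is a description.

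Other regulators of crypt cell fate moved in both directions. Of 28 measured, 5 rose and 1 fell, with a median log2 difference of 0.18 (4 rose after quantile normalization). Neurod1, a factor of endocrine precursors, had 312, 432 and 385 units in DBZ arrays, against 95.9, 92.0 and 90.4 units in vehicle arrays, and rose by 1.84 ± 0.12 (SE; limma, adjusted p = 0.0046). Isl1 and Insm1 of the same lineage rose by 1.67 and 1.42, and Sox9, a factor of stem and Paneth cells, by 0.72. Hes1, the repressor of Atoh1, is named outside the naming rule, and had 181, 255 and 202 units in DBZ arrays, against 332, 399 and 430 units in vehicle arrays (limma, adjusted p = 0.039). Of the E proteins that partner Atoh1, Tcf3 was at -0.27, Tcf4 at 0.24 and Tcf12 at 0.03, with adjusted p-values of 0.32, 0.11 and 0.83 (limma).

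Relatives of the factors by gene family had a median log2 difference of -0.02, with 4 higher (3 with arrays centred on their medians) and 2 lower of 35. Klf5, which is tied to crypt proliferation, fell, with 4538, 4133 and 3841 units in DBZ arrays, against 5537, 6511 and 6332 units in vehicle arrays (limma, adjusted p = 0.037). Ascl2, which maintains stem cells at the crypt base, was lower, at -1.03. Etv5, an ETS factor like Spdef, rose by 1.45, and Atf6b, a stress sensor of the endoplasmic reticulum, by 0.63. In the Creb3 family, named here after values were seen, Creb3l2 rose by 0.87 (limma, adjusted p = 0.041), Creb3 was at 0.63 (limma, adjusted p = 0.12) and Creb3l3 at -0.02 (limma, adjusted p = 0.97).

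Products of goblet and Paneth cells are what several of these factors are known to control. Of 20 goblet effectors 8 rose (7 with arrays centred on their medians), with a median log2 difference of 0.63. Ern2, a sensor of the unfolded protein response in mucous cells, had 839, 1314 and 1445 units in DBZ arrays, against 395, 457 and 367 units in vehicle arrays, and rose by 1.49. The chemokine gene Ccl9 rose by 3.31, Fcgbp, a mucus protein, by 0.61 and Agr2, a disulfide isomerase for mucins, by 1.46. Of 22 listed Paneth genes only 12 were measured. Defa3 was the only defensin among them, at 11.7 to 14.1 units, below the lower quartile of the arrays (17.4 to 19.3 units). Of the 12 measured, 4 rose and 1 fell, with a median of 0.02 that turned to -0.01 after quantile normalization. Cd24a, a surface marker of Paneth cells, rose by 0.95 and Mmp7, a metalloprotease of their granules, by 1.37. The potassium channel gene Kcnn4 was lower, at -1.14. Wnt3, a ligand made by Paneth cells, rose by 0.57 but was dim, at 21.0 to 23.9 units in DBZ arrays. In vehicle arrays it had 9.3 to 10.1 units, below their lower quartiles (17.9 to 19.3 units). Pla2g2a, Ang4 and Mptx1 are named outside the naming rule, for the size of their differences. Pla2g2a had 1588, 3271 and 4743 units in DBZ arrays, against 736, 533 and 631 units in vehicle arrays. It rose by 2.18 (limma, adjusted p = 0.038). Ang4, an antimicrobial ribonuclease, had 902, 4124 and 5511 units in DBZ arrays, against 21936, 15383 and 17089 units in vehicle arrays, and did not pass at -2.70 (limma, adjusted p = 0.068). Mptx1, a pentraxin, had 188, 738 and 425 units in DBZ arrays, against 2969, 1205 and 1983 units in vehicle arrays, and did not pass at -2.25 (limma, adjusted p = 0.065). Every DBZ array lay below every vehicle array for Ang4 and Mptx1, and for 4 of the 12 Paneth genes in all, against 15.8% of all genes. For another 4 every DBZ array lay above, against 17.3% of all genes.

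Genes of vesicles and the endoplasmic reticulum rose in 12 of 24 cases, with a median log2 difference of 0.97. Rab3d, a granule GTPase known as a Bhlha15 target in exocrine cells, had 981, 1467 and 1886 units in DBZ arrays, against 424, 470 and 432 units in vehicle arrays, and rose by 1.63 ± 0.23 (SE; limma, adjusted p = 0.027). Rab26, another such target, was at -0.15 (limma, adjusted p = 0.24) and is named outside the naming rule. Pdia5 rose by 2.23 and Rab15 by 1.60. The lists for goblet, Paneth and secretory genes were drawn up with earlier results known, and their counts are given beside the 3.82% of all genes called higher.

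**Figure D4:**
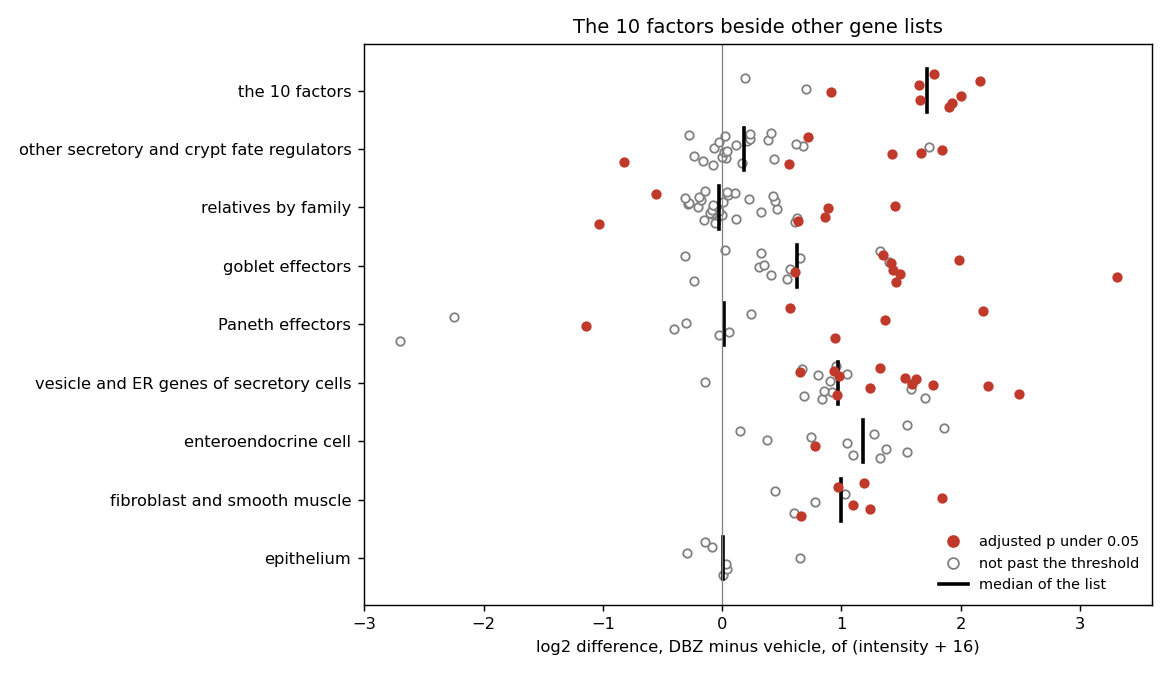
Log2 difference, DBZ minus vehicle, of (intensity + 16) for every measured gene of 9 lists. Filled red points passed the test (adjusted p under 0.05), open points did not, and black bars give list medians, which run from -0.02 for relatives by family to 1.72 for the 10 factors.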

How the data were processed

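RNA of sorted Lgr5-EGFP-high cells from 6 mice was hybridised to Affymetrix arrays after amplification with a 3′ IVT kit, per the labels' protocols. The files hold linear intensities per probe set, as the authors deposited them, at a similar level on every array. The sources used here name no software, background correction, normalization or detection calls, and values were not normalized again.

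Of 45101 probe sets, 34945 had a single gene symbol and were no controls. All 10 factor symbols matched the RefSeq table (GRCm38.p6). Log2(intensity + 16) was tested with limma 3.58.1 in R 4.3.3 (lmFit, eBayes, two-sided), with p-values adjusted by Benjamini-Hochberg over 18193 genes and called under 0.05. The pseudocount of 16 understates changes of dim genes. The test was checked on simulated data, with independent genes and equal spread in both groups. Unequal spreads, as seen for Spdef, were not covered by that check. Factors and lists were chosen with earlier results of these data known. Of 216 list genes, 198 were measured.

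Named were all 10 factors, from each list up to 4 genes past the test by smallest p (or 2 where none passed), the markers Lgr5, Muc2 and Lyz1, and the 5 genes most like Atoh1 and most like Klf4. Where an example was picked otherwise, it was picked after its values were seen. Alternatives covered scaling, pseudocount, dim genes, probe set choice, variance model, array weights, threshold, replicate block and each array left out. With 3 mice a group, precision is low for every value.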

Additional observations from a re-analysis of the deposited data

How the results depend on the processing

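All 10 log2 differences were positive in each of the 15 other settings and the 6 fits with 1 array left out, and 0 of the 10 were lower in any. Scaling, pseudocount, array weights and an array left out could move the differences, as could averaging probe sets for Bhlha15 and Klf4. Thresholds, variance models, the replicate block, dim-gene filters and other probe set choices gave the same differences as the main fit. Those settings are no further check of direction. With 1 array left out, 2 to 8 of the 10 passed, 0 to 8 of the 12 probe sets and 19 to 2032 of all genes. Ordinary t statistics called 0 genes, 0 of the 10 and 0 of the 12 probe sets after adjustment, although 3731 genes and 9 of the 10 had an unadjusted p under 0.05. With a pseudocount of 64, 440 genes, 7 of the 10 and 3 of the 12 probe sets passed. Array weights gave 2690 genes, 9 of the 10 and 9 of the 12 probe sets. A threshold of 0.1 gave 2575 genes, 9 of the 10 and 9 of the 12 probe sets. One of 0.01 gave 31 genes, 3 of the 10 and 2 of the 12 probe sets. Why array weights and the pseudocount moved these counts was not tested. Same-numbered DBZ and vehicle arrays had residuals correlated at -0.01, 0.25 and 0.20, and DBZ replicate 1 did not match its own number best, so the numbers were not taken as pairs. With the replicate number as a block, 7 of the 10, 7 of the 12 probe sets and 889 genes passed. The difference of Bhlha15 ranged from 0.96 (mean of probe sets) to 2.04, that of Foxa2 from 0.57 to 0.85 and that of Klf4 from 0.09 to 0.27. Probe sets near the lower quartile of an array cannot show whether a gene is expressed.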

Other observations

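Neurog3, the factor that starts the endocrine lineage, had 521, 197 and 75.0 units in DBZ replicates 1, 2 and 3, against 53.9, 56.7 and 39.0 units in vehicle arrays. It did not pass (limma, adjusted p = 0.14). Its DBZ arrays stand in the order of Foxa2 and opposite to that of the 8 factors that rose. Both genes were set side by side after their values had been seen.

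Of 6 tuft cell genes 0 passed (limma; 3 at an unadjusted p under 0.05), with Trpm5 at 0.43 (limma, adjusted p = 0.066) and Avil at 0.91 (limma, adjusted p = 0.12). Of 8 enterocyte genes 0 passed as well (limma; 3 at an unadjusted p under 0.05), and Lct was at -0.29 (limma, adjusted p = 0.072). Fabp1 was at -1.76 (limma, adjusted p = 0.16), and vehicle replicate 2 stood apart with 1133 units against 191 and 216 in the other vehicle arrays. Krt18 had 6171, 10299 and 11442 units in DBZ arrays, against 4993, 6795 and 5544 units in vehicle arrays (limma, adjusted p = 0.17), and Krt19 was at -0.29 (limma, adjusted p = 0.18). Xbp1, a factor of the unfolded protein response, had 7520.1, 8072 and 9805 units in DBZ arrays, against 6406, 6136 and 6434 units in vehicle arrays (limma, adjusted p = 0.076), and was lowest in DBZ replicate 1 and highest in replicate 3, like the 8 factors. Lyz1, the Paneth lysozyme, had 17338, 23421 and 25912 units in DBZ arrays, against 28128, 26243 and 26767 units in vehicle arrays (limma, adjusted p = 0.26). Its value in vehicle replicate 1 was the highest on that array, so the difference may be understated, which was not tested.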
